A study of Mus musculus with 32 samples.

Results

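The collagen genes are the protein-coding genes named Col, a type number, a and a chain number, and 44 of the 21897 protein-coding genes in the count files carried such a name. They were grouped by the structure of the protein into 11 fibrillar, 6 basement membrane, 6 microfibrillar type VI, 9 FACIT (fibril-associated collagens with interrupted triple helices), 2 multiplexin, 3 short-chain network and 4 transmembrane collagen genes, with 3 others (Col7a1 of the anchoring fibrils, Col26a1 and Col28a1). RNA was measured at 200 days of age in C57BL/6 mice, in calf muscle (gastrocnemius and soleus) and liver of 6 CTL and 6 COX10 KO mice each, 3 females and 3 males per genotype, and in hypothalamus of 4 CTL and 4 COX10 KO males. The COX10 KO mice carry floxed COX10 alleles, which encode the heme A:farnesyltransferase needed to assemble cytochrome c oxidase, and a Cre recombinase knocked into the Myl1 locus, a gene of the myosin light chain of muscle fibres. The deletion is thus aimed at the muscle fibre in every group named COX10 KO, so that in liver and hypothalamus the name describes the mouse and not its local cells. The alleles carried by CTL mice are not given in the sources used here, nor is it given whether the tissues came from the same mice.

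Collagens are built from 3 alpha chains wound into a triple helix. Fibrillar collagens (types I, III and V foremost) give tissues their tensile strength, type IV collagen forms the network of basement membranes, type VI collagen forms beaded filaments around cells, and FACIT collagens coat the surface of fibrils. In muscle, most fibrillar collagen is made by the fibro-adipogenic cells between the fibres and by tendon cells, in liver by hepatic stellate cells, and in brain by cells of the meninges and the vessel wall, while some transmembrane collagens are made by neurons. Bulk RNA holds all of these cells, and fewer cells of a type and less RNA per cell cannot be told apart in it.

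The libraries were read at 3′ ends only, so a longer transcript gives no more counts. Levels were set side by side between genes on that ground, with the limit that genes overlapping at the 3′ end may share reads. Levels are given as CPM, the counts scaled to a common library size with trimmed mean of M values factors. Total counts ran from 434494 to 11404800 per muscle library, 674311 to 16044634 per liver library and 3526613 to 22321322 per hypothalamus library, of which 336 to 12806 fell on collagen genes. The shallowest library, CTL 2 of muscle, also held a sum of hepatocyte markers of 2500 CPM, against 42.0 to 186 CPM in the other CTL muscle libraries, and of adipocyte markers of 5436 CPM, against 261 to 1112 CPM. Its sum of muscle fibre markers was the lowest of the CTL muscle libraries (63422 CPM). In liver 2 of the 6 CTL liver libraries (CTL 1 and CTL 4) went against their labelled sex. Cox10 itself stood at a median of 123 CPM in CTL against 109 CPM in COX10 KO muscle (log2 fold change 0.06, edgeR adjusted p = 0.907), and since the deleted part was not located relative to the counted 3′ end, this does not check the labels. Muscle fibre markers summed to 60506 to 169003 CPM in every muscle library, hepatocyte markers to 81084 to 215801 CPM in liver and hypothalamic neuron markers to 910 to 2355 CPM in hypothalamus. Of the 44 collagen genes, 30 passed the filter on low counts in muscle, 14 in liver and 36 in hypothalamus. The 14 of liver passed in all 3 tissues, while Col2a1, Col6a5, Col9a1, Col10a1, Col17a1 and Col28a1 passed in none. No read fell on Col6a4 in muscle, nor on Col2a1, Col9a2, Col10a1, Col11a1, Col17a1 and Col26a1 in liver.

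Promoters are shown for 3 members on which the results turn: Col1a2 (the alpha 2 chain of type I collagen, whose level differed between the genotypes in muscle) and the pair Col4a1 and Col4a2 (the alpha 1 and alpha 2 chains of type IV collagen, which lie head to head and whose levels passed no test there). The sequences run from 250 bases before to 50 after the RefSeq start of the gene in GRCm38.p6, at chr6:4505368-4505667 on the plus strand for Col1a2, chr8:11312777-11313076 on the minus strand for Col4a1 and chr8:11312555-11312854 on the plus strand for Col4a2. In GENCODE vM21 the span of Col1a2 begins further upstream, at base 4504814, so the Col1a2 window lies inside that span. Distances below are to the RefSeq start. Capitals mark the CCAAT box, searched as CCAAT on the strand of the gene and as ATTGG for the opposite strand.
Col1a2: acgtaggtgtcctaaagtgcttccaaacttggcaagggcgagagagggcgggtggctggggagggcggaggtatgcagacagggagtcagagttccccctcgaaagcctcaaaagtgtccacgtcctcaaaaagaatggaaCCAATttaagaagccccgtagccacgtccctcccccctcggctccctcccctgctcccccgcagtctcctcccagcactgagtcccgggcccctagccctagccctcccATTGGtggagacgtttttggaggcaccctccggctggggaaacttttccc
Col4a1: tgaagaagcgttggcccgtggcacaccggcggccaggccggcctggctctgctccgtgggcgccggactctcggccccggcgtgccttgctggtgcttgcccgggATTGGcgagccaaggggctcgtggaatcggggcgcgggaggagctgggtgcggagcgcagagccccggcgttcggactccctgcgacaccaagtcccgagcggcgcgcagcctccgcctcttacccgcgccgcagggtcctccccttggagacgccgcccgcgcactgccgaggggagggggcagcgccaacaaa
Col4a2: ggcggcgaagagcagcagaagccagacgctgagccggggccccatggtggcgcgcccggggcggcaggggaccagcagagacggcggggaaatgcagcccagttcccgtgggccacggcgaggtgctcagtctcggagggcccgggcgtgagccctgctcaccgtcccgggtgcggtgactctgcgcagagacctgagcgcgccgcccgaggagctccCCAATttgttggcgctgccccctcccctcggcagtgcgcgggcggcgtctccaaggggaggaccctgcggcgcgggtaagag
The starts of Col4a1 and Col4a2 lie 21 bases apart and their windows share 78 bases, which are printed on opposite strands. The box lies 109 bases before the start of Col1a2, with a second one on the opposite strand at the start itself, 145 bases before the start of Col4a1 on the opposite strand and 32 bases before that of Col4a2. A match was found in 13 of the 38 windows of the 35 collagen genes with a promoter in RefSeq (34.2%) and in 12289 of 32851 windows of all genes (37.4%). The collagen windows held a median of 59.8% G and C, against 52.7% in all windows.

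The first question was where each collagen is expressed. In CTL mice the main chains of types I, III, IV and VI had their highest level in muscle, Col18a1 and Col14a1 in liver, and Col25a1 and Col26a1 in hypothalamus. For this comparison all 32 libraries were scaled together, and the CTL groups were compared in 1 edgeR fit in which 36 collagen genes were tested. Of these, 25 were higher and 4 lower in CTL muscle than in CTL liver, where 28.6% and 26.4% of all 15154 genes tested were higher and lower. Against CTL hypothalamus, 19 were higher and 7 lower in CTL muscle (26.1% and 36.3% of all genes). By class, 8 of 10 fibrillar genes were higher and 1 lower in muscle than in liver, and 7 higher and 2 lower (Col11a1 and Col27a1) than in hypothalamus. Of 5 basement membrane genes 4 were higher in muscle than in liver and 3 higher than in hypothalamus, and all 4 type VI genes tested were higher in muscle than in either. Between CTL liver and CTL hypothalamus, 11 were higher and 15 lower in liver, against 29.1% and 38.8% of all genes. The median log2 difference over the 36 was 2.18 between muscle and liver (2.16 with Col11a1, Col22a1 and Col26a1, which have no count in CTL liver, set at their bound; Col9a2, with 0 counts in CTL liver and 1 in CTL muscle, allows no bound and kept its fitted value), against 0.05 over all genes, and 1.25 between muscle and hypothalamus, against -0.27. With relative log expression factors in place of the trimmed mean, the median of all genes moved by -0.12 in the comparison of muscle with hypothalamus and by -0.18 in that of liver with hypothalamus.

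Type I collagen, the main fibre of connective tissue, led in muscle. Col1a1 had a lowest, median and highest level of 178, 231 and 283 CPM in CTL muscle, 6.05, 11.2 and 15.7 CPM in CTL liver and 6.26, 9.23 and 10.5 CPM in CTL hypothalamus. The muscle range lay far above both others, with log2 differences of 4.39 (SE 0.42) to liver and 4.95 (SE 0.52) to hypothalamus, edgeR adjusted p = 9.12e-11 and 8.09e-10. Col1a2 followed it closely, at means of 198 ± 59.4, 14.0 ± 4.48 and 11.4 ± 3.54 CPM (SD, n = 6, 6 and 4) in muscle, liver and hypothalamus. The difference between liver and hypothalamus passed the test for neither chain (log2 difference 0.56 ± 0.46 for Col1a1 and 0.29 ± 0.43 for Col1a2, mean ± SE, adjusted p = 0.280 and 0.565). Col3a1, the partner of type I in soft tissue fibres, was graded instead, at 111 ± 63.5 CPM in muscle, 20.3 ± 6.35 in liver and 1.85 ± 1.15 in hypothalamus, and each step passed the test (adjusted p = 4.43e-05 for muscle against liver and 8.83e-06 for liver against hypothalamus). Col5a3, a chain of the type V collagen that seeds fibrils, was not separated between muscle and liver (32.5 ± 7.72 and 21.7 ± 11.95 CPM, adjusted p = 0.126), both of which were above hypothalamus (2.93 ± 0.546 CPM).

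The basement membrane pair Col4a1 and Col4a2 stood at similar levels to each other in muscle (100 ± 32.2 and 96.1 ± 13.1 CPM) and liver (25.1 ± 6.33 and 20.6 ± 5.80 CPM). In CTL hypothalamus Col4a2 was above Col4a1 in the summary of 4 libraries, at 27.3 ± 3.19 against 13.6 ± 1.91 CPM. Gm15418 overlaps the 3′ end of Col4a1 on the other strand, and as the strand setting of the counting is not given in the sources used here, reads of Col4a1 and Gm15418 cannot be told apart. Both were higher in muscle than in liver by 1.98 (SE 0.22) and 2.22 (SE 0.21) on the log2 scale. Col6a3, the large alpha 3 chain of type VI collagen, was at 64.3 ± 38.8 CPM in muscle, 9.41 ± 5.69 in liver and 2.24 ± 1.07 in hypothalamus. Col22a1, a FACIT collagen of the junction between muscle and tendon, was at 15.3 ± 7.43 CPM in CTL muscle and had no read in CTL liver, which makes it at least 129-fold higher in muscle (the bound takes 3 counts over the 6 liver libraries).

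Col18a1 (chr10:77052178-77166548, minus strand), the basement membrane proteoglycan from which endostatin is cut, was the leading collagen of liver. It ran from 358 to 664 CPM in CTL liver (median 490), from 5.09 to 25.9 CPM in CTL muscle and from 3.86 to 5.17 CPM in CTL hypothalamus, and the highest of the muscle values was CTL 2, the library with the high hepatocyte and adipocyte marker sums. Liver was above muscle by 5.83 (SE 0.32) and above hypothalamus by 6.89 (SE 0.40) on the log2 scale, adjusted p = 2.64e-16 and 8.98e-16. Its 3′ end overlaps Slc19a1 on the other strand, with the same limit. Col14a1, a FACIT collagen that binds decorin, followed at 64.3 ± 11.7 CPM in liver, 12.3 ± 5.96 in muscle and 1.38 ± 0.769 in hypothalamus. Col27a1, a fibrillar collagen known from cartilage, was also higher in liver than in muscle (28.8 ± 21.4 and 3.35 ± 2.39 CPM), although it varied from 6.91 to 56.1 CPM among the CTL livers.

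In hypothalamus 8 collagen genes passed the filter there alone: Col4a3, Col4a6, Col6a4, Col9a2, Col9a3, Col11a1, Col25a1 and Col26a1. The filter also depends on depth and group size, and not all 8 were shown to be higher there than in muscle. Col4a6 did not differ detectably between CTL muscle and CTL hypothalamus (log2 difference -0.04, SE 0.56, edgeR adjusted p = 0.962). Its muscle level leaned on CTL 2, the shallowest library, which held 15 of its 40 CTL muscle reads. Scaled within muscle, CTL 2 stood at 27.7 CPM, against 1.38 ± 1.12 CPM in the other CTL libraries (SD, n = 5). Col4a3, scaled within each tissue, was at 1.74 ± 1.45 CPM in CTL muscle and 1.67 ± 1.28 CPM in CTL hypothalamus. These values do not share a scale, and Col4a3 was not among the 36 genes tested between tissues. The highest of the 8 was Col25a1 (chr3:130131501-130599877, plus strand), a transmembrane collagen of neurons, with a lowest, median and highest level of 60.7, 68.7 and 104 CPM in CTL hypothalamus, at most 2.00 CPM in CTL muscle and at most 6.30 CPM in CTL liver. It was above muscle by 6.79 (SE 0.66) and above liver by 4.15 (SE 0.57) on the log2 scale, adjusted p = 1.44e-10 and 1.04e-07. Col26a1 was at 11.8 ± 2.84 CPM, at least 99.5-fold higher than in CTL liver, where it had no read. The collagens known from cartilage were represented by Col11a1 at 8.43 ± 1.79 CPM (at least 71.2-fold above CTL liver) and Col9a2 at 7.55 ± 1.83 CPM (at least 63.7-fold above CTL liver).

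**Figure D1:**
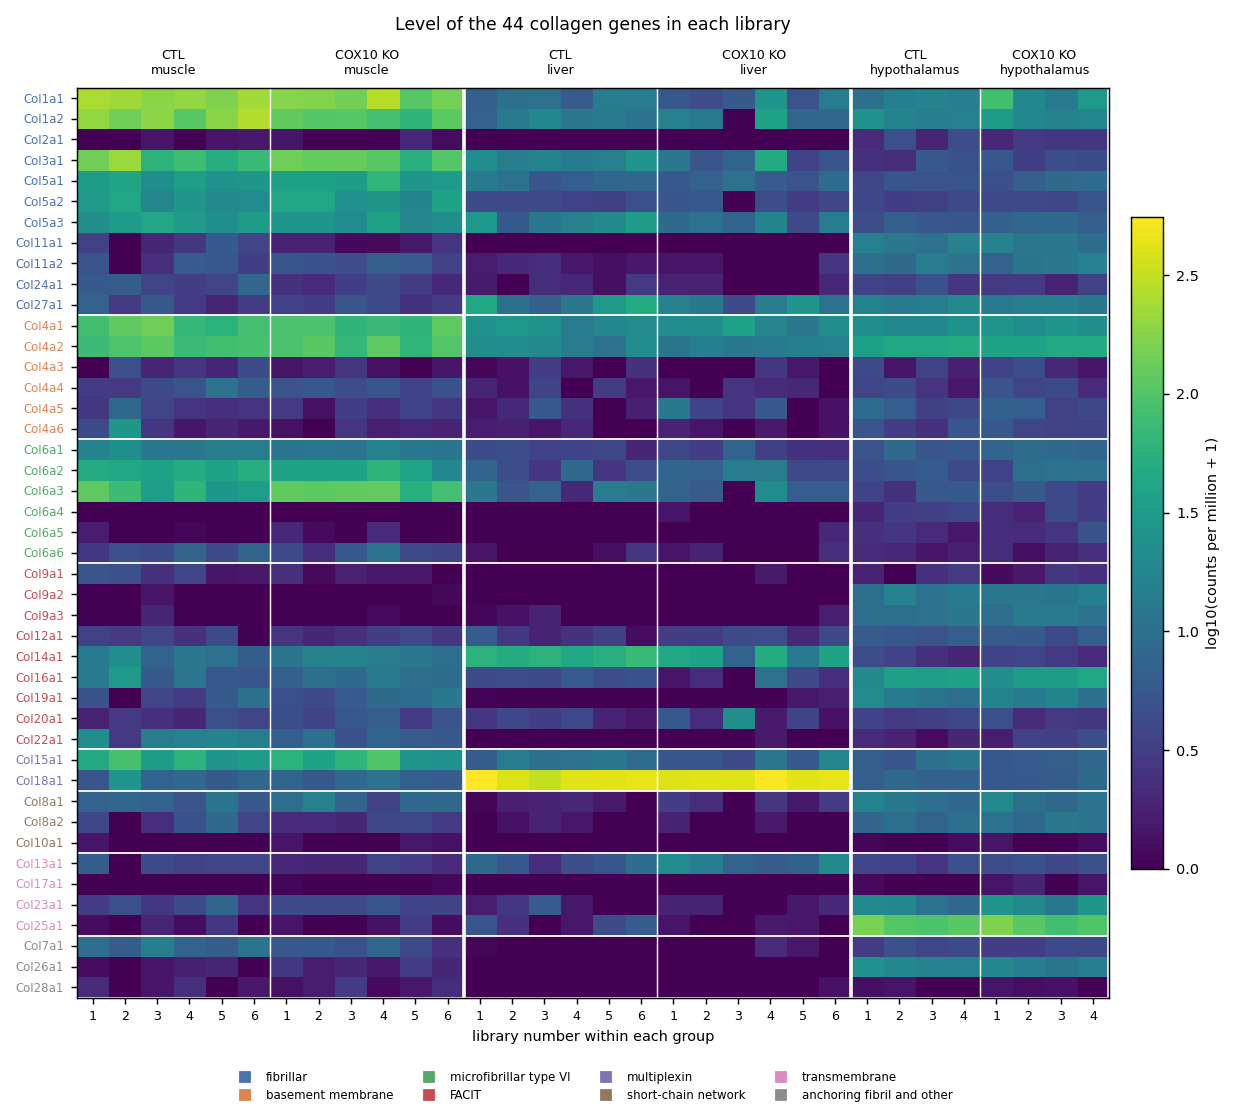
Level of each of the 44 collagen genes (rows, coloured by class) in each of the 32 libraries (columns), as log10 of CPM plus 1, scaled within each tissue. Col1a1, Col1a2, Col3a1, Col4a1 and Col4a2 are bright across muscle, Col18a1 is the brightest row in every liver library and Col25a1 stands out in hypothalamus.

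Summed over classes and scaled within each tissue, collagen RNA made up 1030 ± 178 CPM in CTL against 932 ± 187 CPM in COX10 KO muscle (SD, n = 6 each). Fibrillar genes took 57.0% of that in CTL and 51.3% in COX10 KO muscle, basement membrane genes 18.8% and 19.3%, and type VI genes 11.7% and 16.6%. In liver the multiplexins, almost wholly Col18a1, took 65.8% and 71.0% of 655 ± 114 and 627 ± 112 CPM. In hypothalamus the transmembrane collagens took 29.8% and 28.5% of 441 ± 37.4 and 482 ± 73.7 CPM (n = 4 each). The ranges of the total of CTL and COX10 KO overlapped in all 3 tissues.

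**Figure D2:**
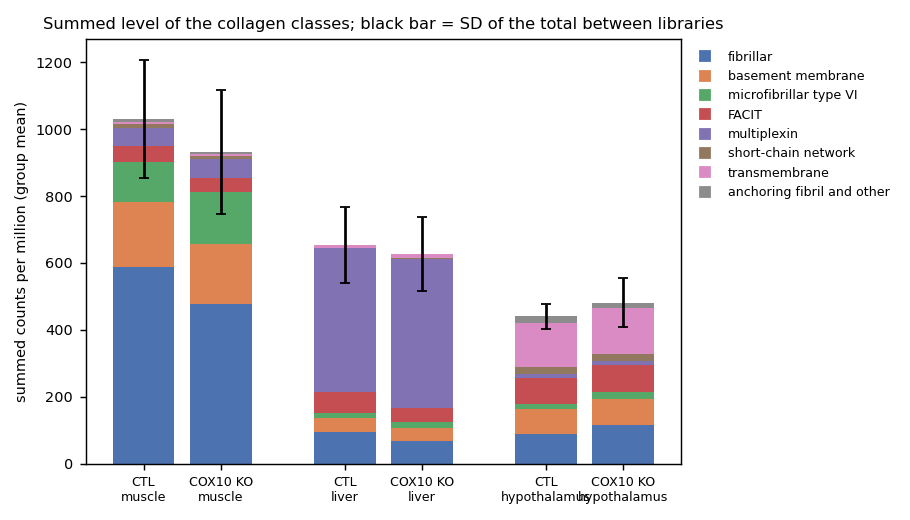
Mean summed CPM of the collagen classes in CTL and COX10 KO muscle and liver (n = 6 each) and hypothalamus (n = 4 each), scaled within each tissue; colours are classes and the black bar is the SD of the total. Muscle is mostly fibrillar, liver mostly multiplexin, and the totals of CTL and COX10 KO differ by less than the SD of COX10 KO in each tissue.

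The main comparison asked how the collagen genes respond to the COX10 deletion in the muscle that carries it. In COX10 KO muscle 2 of the 30 collagen genes tested fell and none rose by edgeR, while DESeq2 also called 1 gene higher, Col6a3. Col1a2 fell to 0.54-fold and Col22a1 to 0.40-fold of CTL. The other fibrillar chains Col1a1 and Col3a1 and the basement membrane pair Col4a1 and Col4a2 passed no test. Among all 11636 genes tested in muscle 6.9% rose and 7.43% fell, and the share of collagen genes that fell was near that background. At an unadjusted p under 0.05 there were 2 higher and 5 lower collagen genes (23.3% of the 30, against 29.7% of all genes), and their median log2 fold change was -0.13, against -0.03 over all genes. No collagen gene had all 6 COX10 KO libraries above or below all 6 CTL libraries, which 4.08% and 2.31% of all genes had.

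Col1a2 (chr6:4504814-4541544, plus strand) had a lowest, median and highest level of 106, 181 and 271 CPM in CTL muscle and of 61.3, 105 and 117 CPM in COX10 KO muscle. Its groups overlapped only at the bottom of the CTL range: 4 of the 6 COX10 KO libraries were below every CTL library. The log2 fold change was -0.89 (SE 0.23), with edgeR adjusted p = 0.0178 and a two-sided exact permutation p = 0.00649 for the CPM. The call was lost without CTL 6, COX10 KO 2 or COX10 KO 5 and in either sex alone, and over 20 alternatives the adjusted p ran from 0.0022 to 0.158. Col1a1, the other chain of the same trimer, had 162, 211 and 250 CPM in CTL against 107, 159 and 278 CPM in COX10 KO muscle, a log2 fold change of -0.28 (SE 0.22) that did not pass the test (adjusted p = 0.406). Whether the effects on the chains differed from each other was not tested. Col3a1 spread from 50.6 to 216 CPM in CTL, where the highest value was CTL 2, and from 51.1 to 139 CPM in COX10 KO muscle (log2 fold change 0.17, SE 0.27, adjusted p = 0.733).

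The type V chains, which start fibrils together with type I, passed no test either, with log2 fold changes of 0.32 (SE 0.23) for Col5a1, 0.33 (SE 0.25) for Col5a2 and -0.25 (SE 0.22) for Col5a3. The low-level fibrillar gene Col24a1 was at 4.20 ± 1.96 CPM in CTL against 1.86 ± 0.835 CPM in COX10 KO muscle, with 4 of 6 COX10 KO libraries below every CTL library (log2 fold change -1.12, SE 0.44, adjusted p = 0.102). Col1a2 was thus the 1 fibrillar gene of 9 tested that passed.

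Of the basement membrane genes 4 were tested and none was called. Col4a1 had 56.0, 84.0 and 141 CPM (lowest, median and highest) in CTL and 61.7, 80.1 and 116 CPM in COX10 KO muscle, a log2 fold change of -0.11 (SE 0.23), and Col4a2 had 73.9, 84.6 and 111 CPM in CTL against 63.9, 96.8 and 115 CPM in COX10 KO muscle, 0.07 (SE 0.19). Both ranges largely coincided.

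Type VI collagen showed the largest summed difference upwards, through Col6a3. It had 27.3, 47.8 and 117 CPM in CTL against 52.1, 114 and 120 CPM in COX10 KO muscle, where 3 libraries lay above every CTL library. The log2 fold change of 0.83 (SE 0.29) missed the threshold (adjusted p = 0.066, exact permutation p = 0.0455). It passed in 6 of 20 alternative fits, among them those without CTL 1 and without CTL 4, and the adjusted p over these fits ranged from 0.003 to 0.426. Col6a1 and Col6a2, the shorter chains that assemble with it, gave 14.5 ± 4.10 against 11.7 ± 1.86 CPM and 43.98 ± 5.20 against 38.3 ± 13.2 CPM, and neither was called.

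Among the FACIT collagens Col22a1 (chr15:71795795-72034227, minus strand) fell. CTL muscle ran from 1.85 to 21.1 CPM with a median of 14.6, and COX10 KO muscle from 3.97 to 9.07 CPM with a median of 5.37. The lowest CTL value was a single read in CTL 2, and the other 5 CTL libraries (13.1 to 21.1 CPM) were all above the 6 COX10 KO libraries. The log2 fold change was -1.32 (SE 0.32), adjusted p = 0.014, exact permutation p = 0.0195, and it was -1.44 (adjusted p = 0.0018) without CTL 2. The call was lost without CTL 1 (adjusted p = 0.0514), with a replicate block (0.0521) and in either sex alone, and the adjusted p over its alternatives ran from 0.00077 to 0.246. Of 6 tendon cell markers tested, Chad and Kera fell, where 7.43% of all genes fell, and the list's median log2 fold change was -0.85. The sum of the list ran from 127 to 348 CPM in COX10 KO muscle, inside the CTL range of 46.1 to 561 CPM. The part of these markers in the change of Col22a1 was not tested. Col20a1, another FACIT gene, stood at 1.91 ± 1.09 CPM in CTL against 3.80 ± 1.39 CPM in COX10 KO muscle (log2 fold change 1.20, SE 0.44, adjusted p = 0.0801).

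Of the low-level remainder, Col7a1, the anchoring fibril collagen, was at 8.46 ± 3.51 CPM in CTL against 4.22 ± 2.01 CPM in COX10 KO muscle, with 5 of 6 COX10 KO libraries below all CTL libraries (log2 fold change -1.03, SE 0.37, adjusted p = 0.0775). Col13a1, a transmembrane collagen of the neuromuscular junction, was at 2.74 ± 1.72 and 1.42 ± 0.633 CPM (log2 fold change -1.18, SE 0.47, adjusted p = 0.105). Both rest on few reads, 157 and 166 in all for Col7a1 and 62 and 54 for Col13a1, and Col7a1 passed without COX10 KO 4 (log2 fold change -1.45, adjusted p = 0.0145) but in no other alternative.

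**Figure D3:**
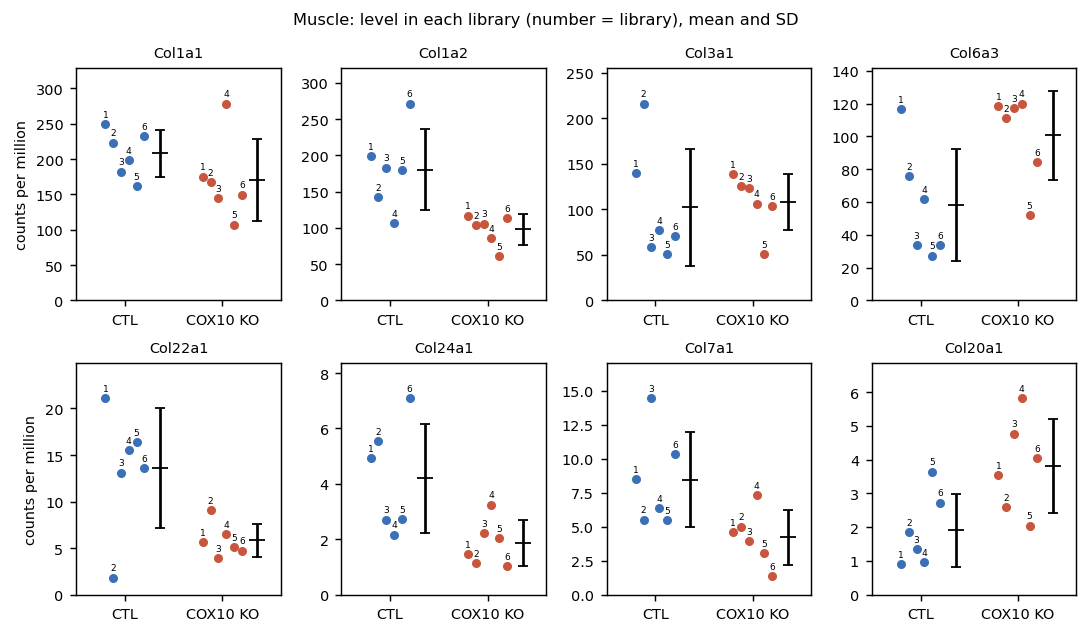
CPM of 8 collagen genes in the 6 CTL and 6 COX10 KO muscle libraries; points are libraries with their number, and the black mark is the mean with its SD. For Col1a2, 4 COX10 KO libraries lie below every CTL library, and for Col22a1 the 1 low CTL point is library 2.

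The genes that make, cut, bind and induce collagen were read from 6 lists. In COX10 KO muscle 2 of their 93 tested genes rose and 10 fell, against 6.9% and 7.43% of all genes. Of the 24 genes of collagen synthesis and crosslinking, P4ha1 (an alpha subunit of the prolyl 4-hydroxylase that stabilises the triple helix) fell by 1.14 and Pcolce2 (an enhancer of procollagen cleavage) fell by 1.77 on the log2 scale, adjusted p = 0.0035 and 0.0083, and the median was -0.21. All 6 COX10 KO libraries were below all CTL libraries for P4ha1, at 5.62 to 10.8 CPM against 11.4 to 21.2 CPM, as was so for 2.31% of all genes. Of the 13 genes of collagen breakdown and its inhibitors, 2 inhibitors of metalloproteinases rose, Timp4 by 0.88 and Timp1 by 1.96, and Timp2, of the same family, fell by 0.68 on the log2 scale (adjusted p = 0.0201, 0.0297 and 0.0227), with a list median of 0.20. Of the 12 laminins, nidogens and perlecan, the partners of type IV collagen in the basement membrane, Lama4 fell by 0.87 (adjusted p = 0.0391, list median -0.21). None of the 22 genes of other interstitial matrix was called by edgeR (median 0.03). Of 6 collagen receptors Ddr1, a receptor tyrosine kinase for collagen, fell by 0.74 on the log2 scale (adjusted p = 0.0282, list median -0.26).

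TGF-beta, the best known inducer of fibrillar collagen genes, was the list with the most calls among the 6: 5 of 16 genes tested fell and none rose, beside 7.43% and 6.9% of all genes, with a median of -0.58 beside -0.03. The list was chosen with earlier results of these libraries known. Smad3, which carries the signal into the nucleus, fell from 75.3 ± 22.5 to 33.6 ± 5.04 CPM (log2 fold change -1.14, adjusted p = 0.0014), and the ligand Tgfb3 fell from 45.9 ± 16.4 to 21.7 ± 2.68 CPM (-1.04, adjusted p = 0.0054). Ltbp4, which stores latent TGF-beta in the matrix, Pmepa1, a feedback inhibitor, and the ligand Tgfb2 were the other members that fell. For Smad3, Tgfb3, Ltbp4 and Pmepa1 every COX10 KO library lay below every CTL library, as was so for 2.31% of all genes. The part of these genes in the collagen values was not tested.

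Cell type markers were read in muscle as well. Of 11 macrophage markers 4 rose (Cd68, Mpeg1, C1qa and Lyz2), and their sum was 129 to 415 CPM in CTL and 249 to 597 CPM in COX10 KO muscle. Of 10 fibro-adipogenic markers Clec3b fell, and the sum was 968 to 1757 CPM in CTL and 784 to 1354 CPM in COX10 KO muscle. Of 10 muscle fibre markers 4 fell (Pvalb, Tnnt3, Atp2a1 and Myh4). Over all 18 marker lists 94 genes were tested in muscle, of which 4 rose and 10 fell, against the same 6.9% and 7.43% of all genes, and their part in the collagen values was not tested.

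**Figure D4:**
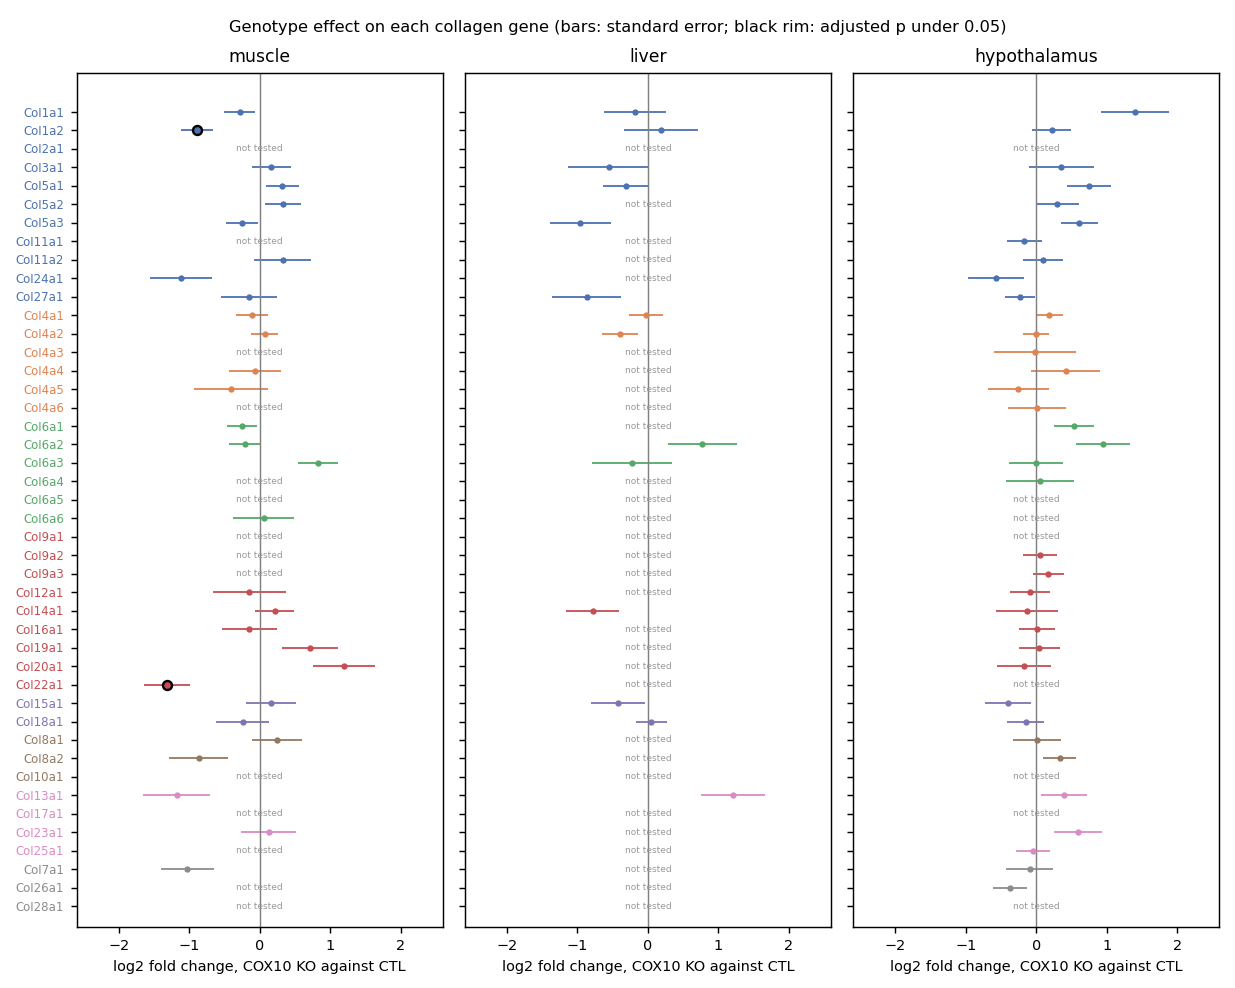
Log2 fold change of each collagen gene in COX10 KO against CTL muscle, liver and hypothalamus with its standard error; colours are classes, a black rim marks an adjusted p under 0.05, and genes under the filter on low counts are marked as not tested. Only Col1a2 and Col22a1 in muscle carry the rim.

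In liver, which keeps COX10, the comparison asked whether collagen genes differ in a tissue that the deletion does not target. No collagen gene of the 14 tested was called by edgeR, and none by DESeq2. Of all 9707 genes tested 0.0206% rose and 0.0721% fell, so few genes of any kind were called. At an unadjusted p under 0.05 there was 1 collagen gene in each direction, Col13a1 upwards and Col5a3 downwards (14.3% of the 14, against 4.98% of all genes). Without CTL 1 and CTL 4, 0 of 14 were likewise called by edgeR, although at an unadjusted p under 0.05 there were then 2 higher, Col6a2 and Col13a1, and 0 lower. The background without these libraries was 0.0202% and 0.141% of all genes higher and lower. No collagen gene separated the groups fully, against 0.196% of all genes above and 0.247% below.

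Col18a1 had a lowest, median and highest level of 308, 415 and 557 CPM in CTL against 403, 420 and 540 CPM in COX10 KO liver, a log2 fold change of 0.05 (SE 0.23). The leading collagen of the tissue thus overlapped almost completely between the genotypes. Col14a1 had 42.3, 54.2 and 71.8 CPM in CTL against 6.55, 37.4 and 49.2 CPM in COX10 KO liver, with 4 of 6 COX10 KO libraries below every CTL library, a log2 fold change of -0.79 (SE 0.37), edgeR adjusted p = 0.997 and an exact permutation p = 0.0108 for this gene alone. Col13a1 was at 5.02 ± 2.67 CPM in CTL against 11.8 ± 6.87 CPM in COX10 KO liver (a log2 fold change of 1.21, SE 0.46, adjusted p = 0.853), and Col5a3 at 18.4 ± 10.1 and 9.46 ± 4.77 CPM (-0.96, SE 0.43, adjusted p = 0.947).

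Of the 6 fibrillar genes tested in liver, 3 were high in 1 library. COX10 KO 4 held 25.7 CPM of Col1a1, 37.2 CPM of Col1a2 and 46.9 CPM of Col3a1, each above every other liver library. Among other lists, the same library had the highest sum of pericyte and smooth muscle markers (172 CPM, against 27.8 to 67.3 CPM in the other liver libraries), of other interstitial matrix (1867 CPM) and of hepatocyte (215801 CPM), cholangiocyte (91.5 CPM), Schwann cell (53.8 CPM) and collagen receptor genes (263 CPM). Other lists went the other way in COX10 KO 4. Its sums of hepatic stellate cell markers (155 CPM), endothelial markers (101 CPM) and TGF-beta signalling genes (120 CPM) were the lowest of the liver libraries. The part of any of these lists in the fibrillar values was not tested. Without COX10 KO 4, Col3a1 was at 5.81 ± 3.49 CPM in COX10 KO (n = 5) against 17.3 ± 5.39 CPM in CTL liver (n = 6). Every remaining COX10 KO library was then below every CTL library, narrowly (highest 11.5 against lowest 12.2 CPM). This separation follows from leaving out the library that was highest for Col3a1, and the share of all genes that separate without it was not taken. The log2 fold change of Col3a1 was then -1.66, in place of -0.56 with all 12 libraries, and the edgeR adjusted p 0.205. Col3a1 adjusted p values over its liver alternatives ran from 0.205 to 1. The type IV pair was at 21.3 ± 5.38 against 21.4 ± 8.29 CPM for Col4a1 and 17.5 ± 4.91 against 13.1 ± 1.78 CPM for Col4a2. No macrophage marker was called in liver, and the sums overlapped, at 317 to 1143 CPM in CTL and 192 to 509 CPM in COX10 KO liver. Of 11 tested, 8 had an unadjusted p under 0.05, all lower in COX10 KO, where 4.98% of all genes had one in either direction. C1qc had the smallest p (log2 fold change -1.54, edgeR adjusted p = 0.179). The part of macrophage markers in the collagen values was not tested. Of the genes that make, cut, bind and induce collagen, none of 47 tested in liver was called by edgeR, with 3 at an unadjusted p under 0.05, of which Lama1 had the smallest p (log2 fold change -0.93, adjusted p = 0.863).

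The same question was put to hypothalamus. None of the 36 collagen genes tested was called by edgeR or DESeq2, nor was any gene at all, with 0% of 13504 genes in each direction. At an unadjusted p under 0.05 there were 4 collagen genes higher and 0 lower in COX10 KO (11.1% of 36, against 1.56% of all genes): the fibrillar genes Col1a1, Col5a1 and Col5a3 and the type VI gene Col6a2. All 4 had an adjusted p of 1.

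Col1a1 was at 9.41, 14.5, 15.9 and 14.1 CPM in the 4 CTL and at 80.9, 18.3, 12.4 and 29.2 CPM in the 4 COX10 KO libraries. Library 1 of COX10 KO stood far above the rest, and the log2 fold change of 1.40 (SE 0.48, unadjusted p = 0.0123) was 0.42 (unadjusted p = 0.158) without both libraries numbered 1. Col1a2 was at 25.1, 15.999, 14.1 and 14.6 CPM in CTL against 31.0, 18.3, 15.8 and 17.4 CPM in COX10 KO, where libraries 1 of both genotypes were the highest. Col5a3 was at 3.48, 5.55, 4.55 and 4.38 CPM in CTL against 6.07, 7.22, 7.79 and 5.80 CPM in COX10 KO, and it was the only collagen gene whose 4 COX10 KO libraries all lay above the 4 CTL libraries, as 0.674% of all genes did (0.733% lay below). Its log2 fold change was 0.61 (SE 0.26), with an exact permutation p of 0.0286, the smallest that 4 against 4 unpaired libraries can give. The deviations of same-numbered libraries of this tissue correlated clearly for number 1 (0.805) and less for the others (0.204 to 0.395). Taken as 4 pairs, they gave p = 0.125 in an exact sign-flip test, the smallest that 4 pairs can give. With the pair as a block the log2 fold change of Col5a3 was 0.60 (edgeR adjusted p = 0.509). Col5a1 was at 2.87, 4.48, 4.10 and 4.14 CPM in CTL against 3.69, 5.83, 7.96 and 8.02 CPM in COX10 KO (log2 fold change 0.75, SE 0.32).

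Col6a2 was at 3.53, 4.27, 5.24 and 3.16 CPM in CTL against 2.604, 8.88, 9.73 and 9.81 CPM in COX10 KO. Here library 1 of COX10 KO was the lowest of all 8 and the other 3 were above every CTL library (log2 fold change 0.95, SE 0.38). Of the collagens with the highest level in this tissue, Col25a1 was at 156, 104, 92.0 and 109 CPM in CTL against 161, 109, 80.5 and 98.5 CPM in COX10 KO, with library 1 the highest and library 3 the lowest in both genotypes (log2 fold change -0.04, SE 0.24). Col4a2 was at 41.8 ± 5.67 and 41.6 ± 5.12 CPM and Col4a1 at 20.8 ± 3.17 and 23.7 ± 2.93 CPM. Col26a1 was at 18.0 ± 4.08 CPM in CTL against 14.0 ± 3.26 CPM in COX10 KO, with 3 of 4 COX10 KO libraries below every CTL library (log2 fold change -0.38, SE 0.24).

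The sums of some marker lists of neighbouring tissue differed between the hypothalamus groups. The sum of 8 choroid plexus markers was 1274 to 2884 CPM in CTL and 3243 to 5361 CPM in COX10 KO, that of the 10 meningeal and perivascular fibroblast markers 72.8 to 92.0 and 92.0 to 106 CPM, with every COX10 KO library above every CTL library in both lists and Igf2 at 0 throughout. Markers of cortex and hippocampus summed to 244 to 459 CPM in CTL and 291 to 555 CPM in COX10 KO. Ttr carried nearly all of the choroid plexus sum (a mean of 2313 CPM in CTL against 4361 CPM in COX10 KO), and the median log2 fold change of that list was 0.29. The lowest choroid plexus sum was that of CTL 4. The same library had a sum of Schwann cell markers of 7370 CPM, against 1859 to 2584 CPM in the other hypothalamus libraries. Tendon cell markers, few of which were tested, also separated fully, with sums of 19.2 to 26.9 CPM in CTL and 29.4 to 32.5 CPM in COX10 KO. Among single genes tested in hypothalamus, 0.674% lay fully above in COX10 KO. The share of the 18 marker lists whose sums did so was not taken. None of the markers in these lists was called, and their part in the values of Col1a1, Col5a1, Col5a3 and Col6a2 was not tested. Of 86 genes that make, cut, bind and induce collagen none was called by edgeR, with 3 at an unadjusted p under 0.05, Fmod, Pcolce and Bgn, each higher in COX10 KO.

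**Figure D5:**
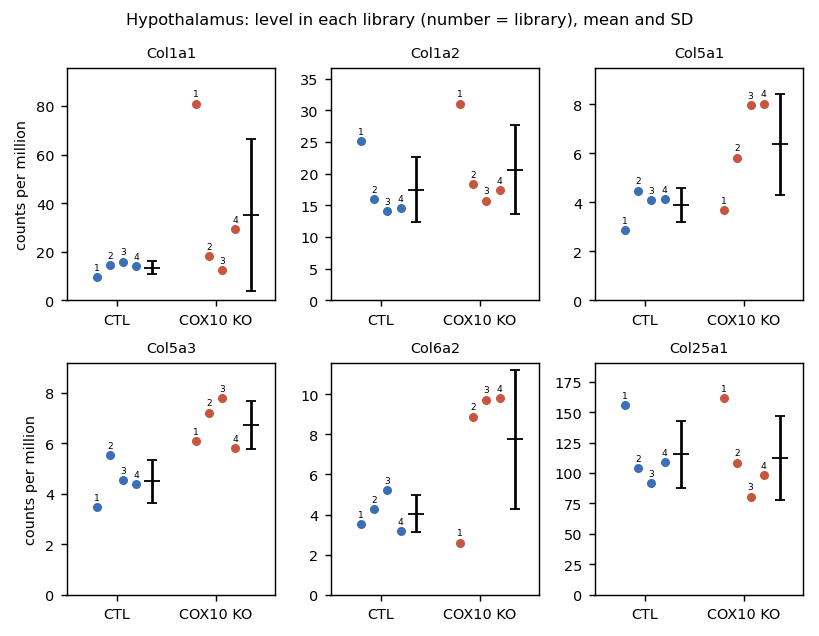
CPM of 6 collagen genes in the 4 CTL and 4 COX10 KO hypothalamus libraries; points are libraries with their number, and the black mark is the mean with its SD. Library 1 of COX10 KO is far above the others for Col1a1 (80.9 CPM) and below them for Col6a2 (2.604 CPM), while the groups separate fully only for Col5a3.

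Whether the genotype effect differed between muscle and liver was tested in a joint fit of both tissues. None of the 27 collagen genes tested passed, where 1.02% of 11661 genes had a higher and 0.986% a lower effect in muscle. The only one of the 27 at an unadjusted p under 0.05, where 2103 of all 11661 genes were, was Col13a1, for which the effects point in opposite directions, down in muscle and up in liver, and differ by -2.41 (SE 0.66) on the log2 scale. Its adjusted p of 0.0548 fell just short, and in 28 alternatives it ranged from 0.0168 to 0.136, with 8 under the threshold. For Col1a2 the difference was -1.10 (SE 0.58, adjusted p = 0.328), so the fall in muscle was not shown to differ from the value in liver.

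The effect of genotype did not differ detectably between females and males for any collagen gene in muscle (32 tested) or liver (14 tested), nor for any gene at all, with 0% of 12065 and 0% of 10030 genes called by edgeR and no collagen gene called by DESeq2. In muscle 1 of the 32 collagen genes had an unadjusted p under 0.05, where 459 of all 12065 genes did. It was Col4a4, a basement membrane chain (log2 difference of the effects in males against females -1.46, SE 0.67). In liver none had, where 123 of all 10030 genes did, and that fit follows labelled sex, which CTL 1 and CTL 4 of liver go against, so that 1 library of the other sex stood in each CTL sex group. For Col1a2 the difference was -0.39 (SE 0.45) and for Col22a1 -0.32 (SE 0.65).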

How the data were processed

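Total RNA of frozen tissue was turned into 3′ libraries with the Lexogen QuantSeq 3′ FWD kit and sequenced single-end on a NextSeq500. The deposited values are counts per Ensembl gene that the authors made with HTSeq 0.6.1 from reads trimmed by BBDuk and mapped with STAR 2.5.0a (genome GRCm38.p6); annotation release and strand setting are not given in the sources used here, and reads were not collapsed to molecules, so precision is that of reads. Ensembl IDs were matched to GENCODE vM21 symbols. Genes that passed filterByExpr were tested with edgeR 4.0.16 (quasi-likelihood F test, trimmed mean of M values factors, two-sided) in R 4.3.3, with a term for labelled sex in the muscle and the liver fit, Benjamini-Hochberg adjustment over all genes tested and a call at an adjusted p under 0.05. Standard errors were derived from the F statistic. Tissues and the genotype effect in muscle against liver were compared in joint fits. Single genes were also tested by an exact permutation of the CPM with scipy 1.17.1. The fits were tested on simulated data. DESeq2 1.42.0, other scaling factors, filters, single sexes, a replicate block and left-out libraries were the alternatives.

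The collagen genes, the 6 lists of genes that make, cut, bind and induce collagen and the 18 marker lists were chosen with earlier results of these data known. Any collagen gene that passed the filter of a tissue could be named there, and up to 4 genes with the smallest p of each other list; Tgfb2, the members of marker lists and which collagen genes got most room were chosen after values were seen. Nothing in the labels says that same-numbered libraries share an animal. In hypothalamus their deviations from the group means correlated at 0.805, 0.204, 0.395 and 0.308 for numbers 1 to 4. For numbers 3 and 4 a differently numbered library correlated more highly (0.469). By that check alone the sign-flip test over pairs was run in hypothalamus, and not in muscle (-0.17 to 0.23) or liver (-0.52 to 0.49). The main fits were unpaired in every tissue, with the replicate block as an alternative. The text of the study names males unless stated, while the labels give both sexes in muscle and liver, which were followed. P-values set a difference against the spread between libraries of these mice. Fits across tissues took all libraries as independent, although it is not given whether the tissues came from the same mice.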

Additional observations from a re-analysis of the deposited data

Results flagged for a closer look

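In 5 of 66 groups examined (4 or 6 libraries of 1 genotype, tissue and collagen gene) the highest or lowest library lay further from the rest than Dixon's 95% limit, which chance does in about 1 in 20 groups. In muscle this was Col5a1 in COX10 KO 4, at 63.1 CPM against 26.1 to 35.0 CPM in the other COX10 KO libraries. In liver COX10 KO 4 stood apart for Col3a1, at 46.9 CPM against 2.53 to 11.5 CPM, and for Col18a1, at 540.1 CPM against 403 to 437 CPM. In hypothalamus COX10 KO 1 was high for Col1a2, at 31.0 CPM against 15.8 to 18.3 CPM, and low for Col6a2, at 2.604 CPM against 8.88 to 9.81 CPM.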

How the results depend on the processing

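In muscle the count of collagen genes that rose was 1 in place of 0 with no expression filter, with at least 10 counts in every library, with DESeq2 and with a replicate block, and 0 to 1 when a library was left out. The count that fell was 1 in place of 2 with at least 10 counts in every library and with the replicate block, 0 in females alone and in males alone, and 1 to 3 when a library was left out. For the genotype effect in muscle against liver, the count lower in muscle was 1 in place of 0 with relative log expression factors, with no expression filter and with no sex term, and 0 to 1 when a library was left out; the count higher in muscle was likewise 0 to 1 (these left-out fits were chosen after seeing the data). With the replicate block in muscle Col22a1 lost its call and Col6a3 gained one, and in hypothalamus the block gave 0 calls. Among the values of single genes under alternatives, 791 kept direction and side of the threshold, 16 gained and 12 lost a call and 26 turned sign. None of those that turned was a call: the cause was not tested. In muscle these were Col3a1 (-0.0742 in females alone), Col4a1 (0.29 in males alone, -0.25 to 0.0523 with a library left out) and Col4a2 (-0.0818 in females alone, -0.0173 to 0.21 left out). In liver, where each fit of 1 sex followed labels that CTL 1 and CTL 4 go against, they were Col1a1 (0.00781 with no sex term, 0.41 in males alone, -0.60 to 0.0045 left out), Col1a2 (-0.0570 with the replicate block, -0.20 in females alone, -0.42 to 0.40 left out), Col4a1 (0.0222 in females alone, -0.14 to 0.0864 left out) and Col18a1 (-0.0179 in females alone, -0.0220 to 0.17 left out). In hypothalamus they were Col1a2 (-0.0547 to 0.45 left out), Col3a1 (-0.13 without both libraries numbered 1) and Col25a1 (-0.27 to 0.12 left out). Depth limits the low genes most: the filter removed 14 of the 44 collagen genes from the muscle fit, 30 from the liver fit and 8 from the hypothalamus fit.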
